A study of Mus musculus with 6 samples.

Results

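The antiviral restriction effectors examined here are 10 interferon-stimulated genes whose products act on viruses inside or at the surface of the infected cell, namely Rsad2, Cmpk2, Bst2, Mx1, Mx2, Ifi44, Ifitm3, Rtp4, Xaf1 and Ifi27l2a. They were chosen by name with their difference between control and Tet1/Tet2 siRNA-treated cells already known, so that difference is described below and not tested. Of the 10, 8 had a row in the expression table, which lists 36870 gene symbols, and all 8 passed the low-value filter, which asked for 0.1 RPKM or more as the mean of the 6 libraries (RPKM is reads scaled to gene length and library size). No row carried the symbol Mx1 or Mx2, and both were not analysed here. RNA-seq was performed on bone marrow mesenchymal stem cells (BMMSCs), the adherent cells grown from C57BL/6 mouse marrow, with 3 libraries from control cells and 3 from cells given siRNAs against Tet1 and Tet2, enzymes that oxidise methylated cytosine in DNA. The sample labels and the siRNA methods name a non-targeting siRNA as the control, whereas the sequencing methods call the control vehicle, and the labels give the cells as passage 2 where the methods give passage 1. Nothing in the labels or methods says whether the 3 libraries of a group came from separate mice or cultures, so p-values below measure only the spread between these libraries.

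Type I interferons bind the IFNAR1 and IFNAR2 chains, the kinases JAK1 and TYK2 then phosphorylate STAT proteins, and these join IRF9 in the complex ISGF3, which binds interferon-stimulated response elements in the promoters of target genes. The products of those targets block viruses at different steps, some at entry, some during genome replication and some at release. Many cells keep a low constitutive level of these genes without infection, and IRF7 and USP18, both made from targets themselves, raise and dampen the response, respectively.

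The knockdown was first examined in the libraries. Tet2 measured 2.573, 4.081 and 3.706 RPKM in controls against 0.358, 0.238 and 0.202 RPKM after siRNA, a difference of -1.80 ± 0.13 (SE) on the log2(RPKM + 1) scale (limma, Benjamini-Hochberg adjusted p = 2.88e-05). Tet1 was near the lowest listed value in both groups, between 0.032 and 0.098 RPKM in controls and between 0.001 and 0.01 RPKM after siRNA, and was below the filter, and Tet3 differed by 0.12 (adjusted p = 0.508) and the reference gene Gapdh by -0.01 (adjusted p = 0.922). Estimated depth was 32300000 to 37200000 reads in the control libraries and 35500000 to 38600000 in the siRNA libraries. The cells labelled BMMSC carried markers of more than 1 cell type. Of 14 stromal markers, 12 were tested, 10 were lower and none was higher after siRNA, and their summed level was 1147.508 to 1661.262 RPKM in control and 143.911 to 290.87 RPKM in siRNA libraries, with Lum and Thy1 near 0 in both groups. Of 13 macrophage markers, 3 were lower and 7 higher after siRNA, with a summed level of 7085.055 to 9464.089 RPKM in control and 14454.162 to 17368.433 RPKM in siRNA libraries, most of it Lyz2. Of 5 markers of plasmacytoid dendritic cells, which make large amounts of type I interferon, Siglech, Ccr9, Klk1 and Pacsin1 reached at most 0.079 RPKM in any library, and only Tcf4 was expressed. Summed markers were 3.38 to 3.511 RPKM in control and 9.265 to 16.196 RPKM in siRNA libraries for neutrophils, mostly S100a8, 2.416 to 2.679 and 7.593 to 8.705 RPKM for T cells, mostly Cd4, and 2.414 to 2.88 and 1.352 to 1.458 RPKM for endothelial cells, and those of B cells and erythroid cells reached at most 1.334 and 0.178 RPKM. Within the last lists the genes did not move together. Of the neutrophil markers, S100a8 was higher, Camp was lower (-1.21, adjusted p = 5.52e-05 in limma) and S100a9 stood at 0.001 RPKM in all 6 libraries. Cd3e, Cd3d, Cd3g and Cd8a reached at most 0.027 RPKM. Of the endothelial markers, Kdr and Emcn were lower, Pecam1 was higher and Cdh5 was not called. The stromal, macrophage, neutrophil, T cell and endothelial sums each separated the groups, as the effectors below did, and the part of these cell types in the effectors' differences was not tested.

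All 8 measured effectors were lower in every siRNA library than in any control library. The ratio of the group means ran from 3.2 for Bst2 to 59.6 for Ifi44, and its median on the log2 scale was -3.86, against -0.12 over all 13266 genes tested. Each of the 8 exceeded a 2-fold fall with no overlap between groups, a rule that 1587 of all genes tested (12.0%) met; since the genes were chosen on this contrast, nothing is read from that count. In bulk RNA, fewer cells of a type and less RNA per cell cannot be told apart, and this holds for every fall described here. Centring each library on the stromal markers, which was chosen after the data were seen, divides all RPKM of a library by the same factor. On the log2(RPKM + 1) scale low values shift less. This centring moved the median difference in log2(RPKM + 1) of all genes tested from -0.09 to 2.02. The median of the 8 went from -3.49 to -1.28 and Bst2 from -1.67 to 0.81, each below the median of all genes before and after. A common factor keeps the genes of a library in order, so that place is no separate result. Centred in this way, 5 of the 8 and 0.724% of all genes met the rule. Centred on the macrophage markers, all 8 and 13.6% of all genes met it, and the median of the 8 was -3.63. The 8 were chosen on this contrast, so nothing is read from these counts either.

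**Figure D1:**
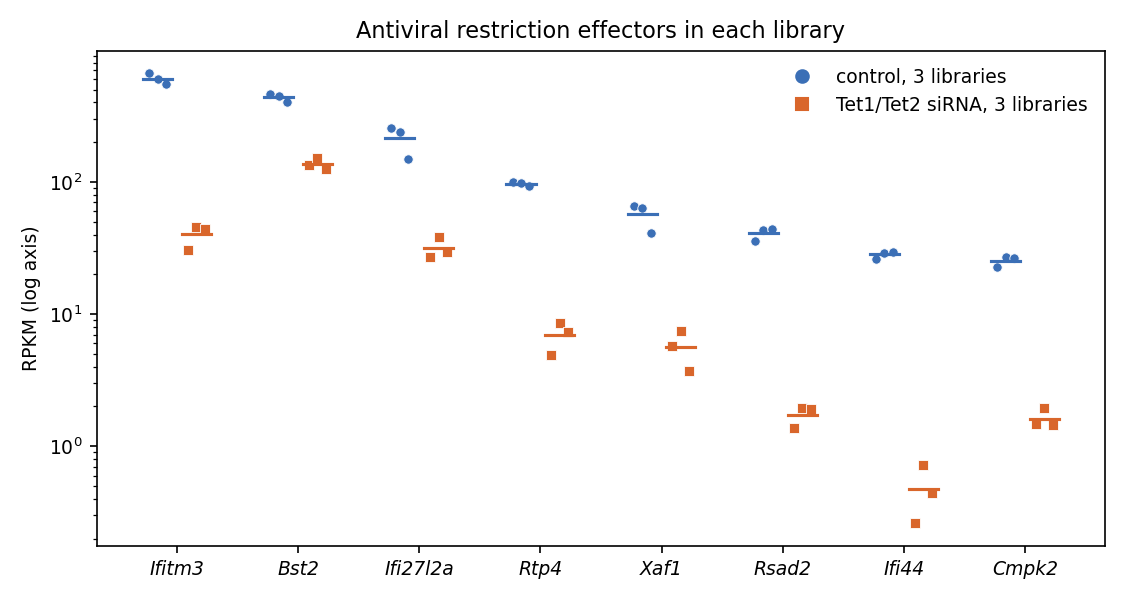
RPKM (log axis) of the 8 measured antiviral effectors in each library, with circles for the 3 control and squares for the 3 Tet1/Tet2 siRNA libraries and a line at each group mean. The groups do not overlap for any of the 8, the gap is smallest for Bst2 (3.2-fold between the means) and widest for Ifi44 (59.6-fold).

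The effectors that act at membranes were the most abundant. Ifitm3 (chr7:141009586-141010770, minus strand; coordinates here follow GENCODE M21, build GRCm38) encodes a transmembrane protein of endosomes that hinders the fusion of entering viruses with the cell's membranes. Its level was 663.854, 601.12 and 546.232 RPKM in the control libraries and 30.3, 45.513 and 44.258 RPKM in the siRNA libraries. Ifitm3 was the highest of the effectors in control cells, at 603.7 ± 58.9 RPKM (SD, n = 3), and fell 15.1-fold by the group means to 40.02 ± 8.44 RPKM. Among all genes tested it went from percentile 99.6 of level in control cells to percentile 85.7 after siRNA.

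Bst2 (chr8:71534255-71537456, minus strand) encodes tetherin, which holds budding enveloped viruses at the cell surface. It stood at 461.013, 448.11 and 405.695 RPKM in control and at 134.372, 152.502 and 124.155 RPKM in siRNA libraries. The means were 438.3 ± 28.9 and 137.0 ± 14.4 RPKM (SD, n = 3 each), a 3.2-fold fall, which was the smallest of the 8, and the lowest control library was still 2.66 times the highest siRNA library. The ratio of Ifitm3 to Bst2, both in RPKM and so per length, was 1.44, 1.34 and 1.35 in the control libraries and 0.225, 0.298 and 0.356 in the siRNA libraries. Bst2 thus replaced Ifitm3 as the most abundant of the effectors after siRNA, with no overlap of their ranges in either group.

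Ifi27l2a (chr12:103442167-103443680, minus strand) belongs to the family of small hydrophobic interferon-inducible proteins that includes Ifi27. Its values were 254.772, 236.825 and 148.081 RPKM in control and 27.232, 38.601 and 29.484 RPKM in siRNA libraries. Control replicate 3 lay well under the others of its group, and the mean of 213.2 ± 57.1 RPKM (SD, n = 3) had the largest relative spread of the effectors in control cells, 26.8%. After siRNA the mean was 31.77 ± 6.02 RPKM, 6.71-fold lower.

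Rsad2 and Cmpk2, which lie next to each other on chromosome 12 in opposite orientations, act on nucleotides. Rsad2 (chr12:26442746-26456452, minus strand) encodes viperin, a radical SAM enzyme that makes a chain-terminating analogue of CTP, and Cmpk2 (chr12:26469204-26479837, plus strand) encodes a nucleoside monophosphate kinase of mitochondria. Rsad2 stood at 35.967, 43.331 and 44.175 RPKM in control and at 1.371, 1.943 and 1.898 RPKM in siRNA libraries, a 23.7-fold fall of the mean from 41.16 ± 4.52 to 1.737 ± 0.318 RPKM (SD, n = 3 each). Cmpk2 stood at 22.523, 27.142 and 26.424 RPKM in control and at 1.472, 1.942 and 1.449 RPKM in siRNA libraries, a 15.6-fold fall from 25.36 ± 2.49 to 1.621 ± 0.278 RPKM. The pair kept a nearly fixed ratio in control cells, 1.6, 1.6 and 1.67 of Rsad2 to Cmpk2, and a more variable one after siRNA, 0.931, 1.0 and 1.31, with no overlap between the groups. Their ranges of RPKM did not overlap in control cells and did overlap after siRNA.

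Ifi44 (chr3:151730922-151749960, minus strand), an interferon-inducible protein of the cytoplasm with reported antiviral activity, had the largest fall. Its values were 25.964, 29.142 and 29.712 RPKM in control and 0.262, 0.719 and 0.441 RPKM in siRNA libraries. At the estimated depth and with its longest annotated transcript, these values correspond to 3900 to 3932 reads in the control libraries and to 41, 113 and 64 reads in the siRNA libraries. The mean went from 28.27 ± 2.02 to 0.474 ± 0.23 RPKM (SD, n = 3 each), 1.68% of the control level, and the fall ranked 8 among all genes tested by the ratio of the means. The siRNA libraries differed from each other more for Ifi44 than for the other effectors, with a relative spread of 48.6%. Its fall on the log2(RPKM + 1) scale, -4.32, understates the ratio, whose log2 is -5.90, because the siRNA values are below the pseudocount.

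Rtp4 (chr16:23520291-23614222, plus strand) encodes a transporter-like protein that binds viral RNA, and Xaf1 (chr11:72301629-72313733, plus strand) encodes a zinc-finger protein known for countering the apoptosis inhibitor XIAP. Rtp4 stood at 98.983, 98.06 and 93.304 RPKM in control and at 4.881, 8.612 and 7.325 RPKM in siRNA libraries. It was the steadiest of the effectors in control cells, with a relative spread of 3.15%, and fell 13.9-fold from 96.78 ± 3.05 to 6.939 ± 1.9 RPKM (SD, n = 3 each). Xaf1 stood at 65.335, 63.843 and 41.304 RPKM in control and at 5.711, 7.405 and 3.7 RPKM in siRNA libraries, with means of 56.83 ± 13.5 and 5.605 ± 1.85 RPKM and a 10.1-fold fall. For Xaf1, replicate 3 was the lowest library of both groups.

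Mx1 (chr16:97447035-97462907, minus strand) and Mx2 (chr16:97535308-97560900, plus strand) encode dynamin-like GTPases that restrict influenza and other viruses, and laboratory mouse strains such as C57BL/6 carry defective copies. GENCODE M21 lists Mx2 as a polymorphic pseudogene. No value is given for either gene.

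In order of level, the effectors in control cells were Ifitm3, Bst2, Ifi27l2a, Rtp4, Xaf1, Rsad2, Ifi44 and Cmpk2. The ranges of the 3 libraries overlapped for the neighbours Xaf1 and Rsad2 and for Ifi44 and Cmpk2, and no other neighbours overlapped. After siRNA the order was Bst2, Ifitm3, Ifi27l2a, Rtp4, Xaf1, Rsad2, Cmpk2 and Ifi44, with overlapping ranges for Ifitm3 and Ifi27l2a, for Rtp4 and Xaf1, and for Rsad2 and Cmpk2.

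The promoters of the effectors are shown because the interferon-stimulated response element is the sequence that ISGF3 binds in such genes. RefSeq promoters, from 250 bases before to 50 bases after the annotated start on GRCm38.p6, were found for 6 of the 8 measured effectors, Ifi44, Ifitm3, Bst2, Xaf1, Rsad2 and Cmpk2. They were searched on both strands for GAAA, any 2 bases, and GAAA, the repeat at the core of the element. Rsad2, Bst2 and Ifitm3 held it. The windows below give the 250 bases before the start and the first 30 after it, 5′ to 3′ on the strand of the gene, with matches in capitals, and cover chr12:26456423-26456702 (minus strand) for Rsad2, chr12:26468965-26469244 (plus strand) for Cmpk2, chr8:71537443-71537722 (minus strand) for Bst2 and chr7:141010715-141010994 (minus strand) for Ifitm3.
Rsad2: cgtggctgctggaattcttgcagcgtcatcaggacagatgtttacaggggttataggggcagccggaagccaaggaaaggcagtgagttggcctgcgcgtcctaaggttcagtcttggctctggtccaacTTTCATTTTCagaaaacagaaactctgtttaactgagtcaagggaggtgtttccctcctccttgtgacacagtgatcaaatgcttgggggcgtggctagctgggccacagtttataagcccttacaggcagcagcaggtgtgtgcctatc
Cmpk2: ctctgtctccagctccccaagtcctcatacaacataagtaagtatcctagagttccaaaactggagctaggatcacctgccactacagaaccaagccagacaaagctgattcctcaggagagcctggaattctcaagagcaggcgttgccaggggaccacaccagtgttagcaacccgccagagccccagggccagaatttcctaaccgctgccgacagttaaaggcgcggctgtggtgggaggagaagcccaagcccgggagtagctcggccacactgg
Bst2: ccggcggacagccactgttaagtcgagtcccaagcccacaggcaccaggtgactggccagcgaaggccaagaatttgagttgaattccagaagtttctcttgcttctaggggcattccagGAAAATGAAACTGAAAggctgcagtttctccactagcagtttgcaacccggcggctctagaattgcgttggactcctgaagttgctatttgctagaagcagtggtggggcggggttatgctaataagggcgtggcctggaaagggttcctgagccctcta
Ifitm3: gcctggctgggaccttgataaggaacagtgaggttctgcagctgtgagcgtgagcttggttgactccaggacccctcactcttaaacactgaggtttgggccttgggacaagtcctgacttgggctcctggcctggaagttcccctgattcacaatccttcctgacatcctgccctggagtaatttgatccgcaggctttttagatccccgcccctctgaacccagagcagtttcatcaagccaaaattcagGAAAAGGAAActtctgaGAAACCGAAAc
In Rsad2 the match lies on the opposite strand, from -120 to -111 relative to the start. Bst2 has 2 matches, from -130 to -121 and from -124 to -115, which overlap and read as 1 run of capitals. Ifitm3 has 2 separate matches after the start, from 3 to 12 and from 20 to 29. No match was found in Cmpk2, Ifi44 or Xaf1, which says only that these letters are not in the window. Of all 32851 promoters, 3.44% held the repeat. Counted by gene, with a match in any promoter of the gene, 3.99% of 27025 gene symbols held it. So did 17 of 40 other antiviral effectors (42.5%). Among the 4 printed, the promoter without the letters belongs to Cmpk2, which fell 15.6-fold, and the pair of overlapping matches to Bst2, which fell 3.2-fold; with 6 promoters no relation to the size of the fall was examined.

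Libraries of 1 group were also compared with each other. Within the siRNA group, replicate 2 was the highest library for 8 of 8 effectors, whereas it was the highest for 28.5% of all genes tested and for 23 of 45 other antiviral effectors (51.1%). The 8 were not alone in this. Ifit2, Ifit3, Isg15 and Oasl1, with the largest falls of those others in log2(RPKM + 1), were also highest in replicate 2. Iigp1, with the largest ratio of means among them, was highest in replicate 3. Ifi44 varied most, at 55.3%, 151.7% and 93.0% of its group mean in replicates 1, 2 and 3, and Bst2 the least, at 98.1%, 111.3% and 90.6%. Replicate 1 was the lowest for Rsad2, Ifi44, Ifitm3, Rtp4 and Ifi27l2a and replicate 3 for Cmpk2, Bst2 and Xaf1. The median relative spread of the effectors was 9.78% in control and 20.0% in siRNA libraries, against 10.2% and 8.03% over all genes tested.

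Within the control group, the effectors split by library. Replicate 3 was the lowest for Ifi27l2a, Ifitm3, Bst2, Rtp4 and Xaf1, and replicate 1 was the lowest for Rsad2, Cmpk2 and Ifi44. Transcript length moved with this split. The 3 effectors whose longest transcript exceeds 3000 bases were higher in replicate 3 than in the mean of the others, by 0.09 (Cmpk2) to 0.15 (Rsad2) in log2(RPKM + 1), and the 5 shorter ones were lower, by as much as -0.73 for Ifi27l2a with its transcript of 463 bases. Over all genes whose control mean reached 10 RPKM, replicate 3 was the lowest control library for 95.7% of 324 genes under 1000 bases and for 26.5% of 3327 genes over 3000 bases. The part of this in the effectors' values was not tested, and the fall was present without control replicate 3 for all 8.

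**Figure D2:**
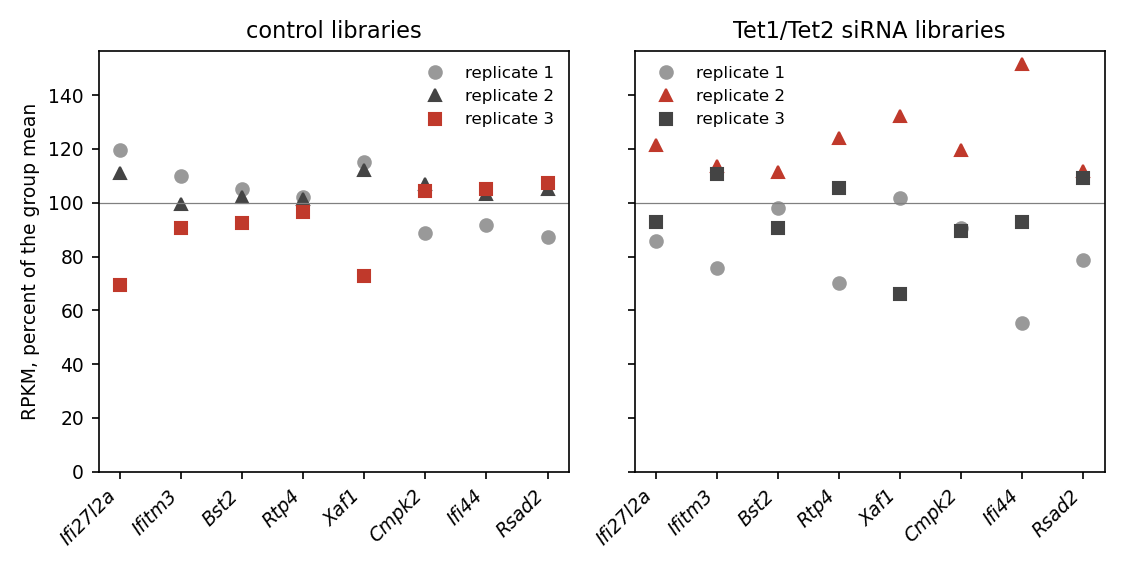
RPKM of each effector as a percentage of its group mean, with the 3 control libraries on the left, the 3 siRNA libraries on the right and genes ordered by transcript length. In the siRNA group replicate 2 is the highest for all 8, and in the control group replicate 3 is the lowest for the 5 genes with shorter transcripts.

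The rest of the interferon pathway was compared in the same libraries, in lists of genes assembled by role. Differences below are in log2(RPKM + 1), siRNA minus control, with Benjamini-Hochberg adjusted p-values from limma over all 13266 genes tested, of which 3952 (29.8%) were lower and 1953 (14.7%) higher after siRNA at an adjusted p under 0.05; with quantile normalization the split was 2627 lower and 3606 higher, and with median ratio scaling 3054 and 2737. Over the 5 lists with tested genes, 72 of 92 genes (78.3%) were lower, 7 (7.61%) were higher and 13 did not pass, with a median difference of -1.07 against -0.09 over all genes. The lists were assembled with results of these data known, so these counts describe them.

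Interferon transcripts themselves were barely detected. None of 21 interferon genes reached the filter, and 14 stood at the lowest listed value, 0.001 RPKM, in all 6 libraries. Ifnb1, the gene of interferon beta, was listed at 0.001, 0.078 and 0.32 RPKM in control and at 0.034, 0.001 and 0.001 RPKM in siRNA libraries, about 0, 2 and 8 reads against 1, 0 and 0 reads. At this depth no difference between the groups could be examined for the ligands.

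None of the 5 tested receptor chains was called lower; Ifnlr1, the other chain of the interferon lambda receptor, was below the filter. Ifnar1 was higher after siRNA, from 22.576, 21.011 and 21.755 RPKM to 27.046, 28.735 and 29.747 RPKM (0.37, adjusted p = 0.00199), and so was Il10rb, a chain of the interferon lambda receptor (0.36, adjusted p = 0.00505). Ifnar2 differed by 0.02 (adjusted p = 0.89), Ifngr1 by 0.16 (adjusted p = 0.0769; 0.00464 with quantile normalization and 0.014 with median ratio scaling) and Ifngr2 by -0.03 (adjusted p = 0.811), which did not pass. Of the kinases, Jak2, which serves the interferon gamma receptor, was lower (-0.80, adjusted p = 0.000572), and Jak1 and Tyk2 did not pass. The median of the 8 receptors and kinases was 0.12, with 1 lower, 2 higher and 5 not called.

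Among STAT and IRF factors, 7 of 10 were lower, none was higher and 3 did not pass, with a median of -0.73. Irf7, the factor that amplifies interferon production, went from 296.48, 277.86 and 241.218 RPKM to 4.289, 12.292 and 6.851 RPKM (-5.05, adjusted p = 7.2e-06), and its siRNA replicate 2 was the highest, as for the effectors. Stat2 and Irf9, whose products are subunits of ISGF3, were lower by smaller amounts, Stat2 by -2.13 (adjusted p = 6.67e-07) and Irf9 by -1.14 (adjusted p = 4.81e-05). Irf1 (-0.96, adjusted p = 2.23e-05), Stat3 (-0.51, adjusted p = 0.000309) and Irf5 (-0.46, adjusted p = 0.000639) were also lower. Irf2, Irf3 and Irf8 differed by -0.03, 0.09 and 0.09 and did not pass, but Irf8 passed as higher with median ratio scaling and quantile normalization (adjusted p = 0.0438 and 0.0447). The effectors' differences of -1.67 to -4.32 on this scale lay between those of Irf9 and Irf7.

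Feedback regulators and sensors were lower in part. Usp18, which removes ISG15 and blocks signalling at IFNAR2, went from 49.44, 53.181 and 45.322 RPKM to 0.805, 2.287 and 1.623 RPKM (-4.33, adjusted p = 2.51e-06), and 8 of 10 feedback genes were lower, Ube2l6, the enzyme that conjugates ISG15, by -1.85 (adjusted p = 7.05e-06). Socs1 (-0.88, adjusted p = 0.000132) and Socs3 (-0.81, adjusted p = 0.000322), which inhibit JAK kinases, were lower too. The smallest calls were Ptpn2, a phosphatase that acts on JAK1 (-0.40, adjusted p = 0.00557; 0.0626 with quantile normalization and 0.0721 relative to Gapdh), and Ptpn6, the phosphatase SHP-1, which was the 1 gene higher (0.26, adjusted p = 0.0253) and lost its call without control replicate 2, siRNA replicate 1 or siRNA replicate 2 (adjusted p = 0.068, 0.0691 and 0.101), with no filter (0.152) and relative to Gapdh (0.121). Of 19 nucleic acid sensors and adaptors, 14 were lower and 1, the endosomal receptor Tlr8, was higher (0.31, adjusted p = 0.00661; 0.0764 relative to Gapdh), with a median of -0.52. Zbp1, a sensor of Z-form nucleic acid (-3.73, adjusted p = 5.65e-07), Ddx58, which encodes RIG-I (-2.46, adjusted p = 3.63e-07), Dhx58, which encodes LGP2 (-2.36, adjusted p = 1.07e-06), and Ifi204, a DNA sensor (-2.14, adjusted p = 5.65e-07), had the largest falls. Tlr7 (-0.29, adjusted p = 0.0046; 0.0517 with quantile normalization and 0.143 relative to Gapdh) and Aim2 (-0.27, adjusted p = 0.0381) had the smallest, and the call for Aim2 was lost when any 1 of 5 libraries was left out (adjusted p = 0.0535 to 0.14, with control replicate 1 the exception), with no filter (0.128) and under 3 other scalings (0.138 to 0.334).

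Of the lists, the other antiviral effectors had the lowest median. Of 45, 42 were lower, 3 were higher and none failed the test, with a median of -1.71 against -3.49 for the 8. On the log2(RPKM + 1) scale the largest falls were those of Ifit3 (-4.99, adjusted p = 1.94e-06) and Ifit2 (-4.37, adjusted p = 3.1e-06), which bind viral RNA, of Isg15, a ubiquitin-like modifier (-4.40, adjusted p = 1.47e-06), and of Oasl1 (-4.29, adjusted p = 1.94e-06), of the oligoadenylate synthetase family. By the ratio of the group means the order was another, with Iigp1, an immunity-related GTPase, first at 80.2-fold, Oasl1 at 52.4-fold and Ifit3 at 43.0-fold; Iigp1 was named after its values were seen. The 3 that were higher were Serinc5 (0.72, adjusted p = 0.000271) and Serinc3 (0.37, adjusted p = 0.00153), membrane proteins that restrict retroviruses and are not known chiefly as interferon targets, and Apobec1, a cytidine deaminase that edits RNA (0.28, adjusted p = 0.00293; 0.0888 relative to Gapdh).

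**Figure D3:**
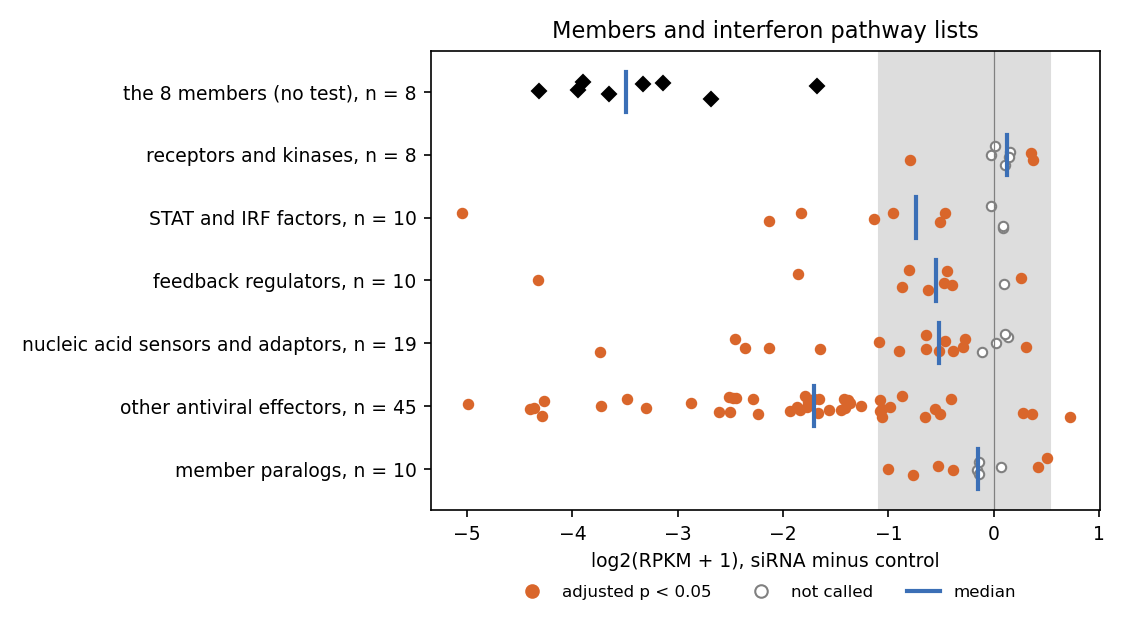
Difference in log2(RPKM + 1), siRNA minus control, of the 8 effectors (diamonds, no test), of each tested gene of the pathway lists and of the effectors' paralogs; filled points passed an adjusted p of 0.05, bars are medians and the grey band spans the 5th to 95th percentile of all genes tested, -1.09 to 0.53. The 8 effectors lie below the band, the receptors and kinases lie within it, and the other antiviral effectors spread from -4.99 to 0.72.

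Close relatives of the effectors at the same loci were tested, since they were not among the genes chosen. Ifitm2, on the same strand of chromosome 7 as Ifitm3, stood at 155.441, 143.219 and 99.152 RPKM in control and at 112.889, 119.096 and 116.687 RPKM in siRNA libraries, and the groups overlapped (-0.16, adjusted p = 0.401); without control replicate 3 the difference was -0.36 (adjusted p = 0.00136). The ratio of Ifitm3 to Ifitm2 was 4.27, 4.2 and 5.51 in control and 0.268, 0.382 and 0.379 in siRNA libraries, so the order of these paralogs was reversed in each siRNA library. Ifi27, which lies 1928 bases from Ifi27l2a on the other strand, rose from 77.873, 71.806 and 58.66 RPKM to 99.747, 101.053 and 95.116 RPKM (0.51, adjusted p = 0.00381), a call that was lost with no filter on low values (adjusted p = 0.0739). The ratio of Ifi27l2a to Ifi27 was 3.27, 3.3 and 2.52 in control and 0.273, 0.382 and 0.31 in siRNA libraries. How reads that match both members of such a pair were assigned is not given in the sources used here, nor whether counting used strand, so the split between paralogs is uncertain. In RefSeq the span of Ifi27l2a also takes in Ifi27, and Ifi27 is an older name of Ifi27l2a.

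**Figure D4:**
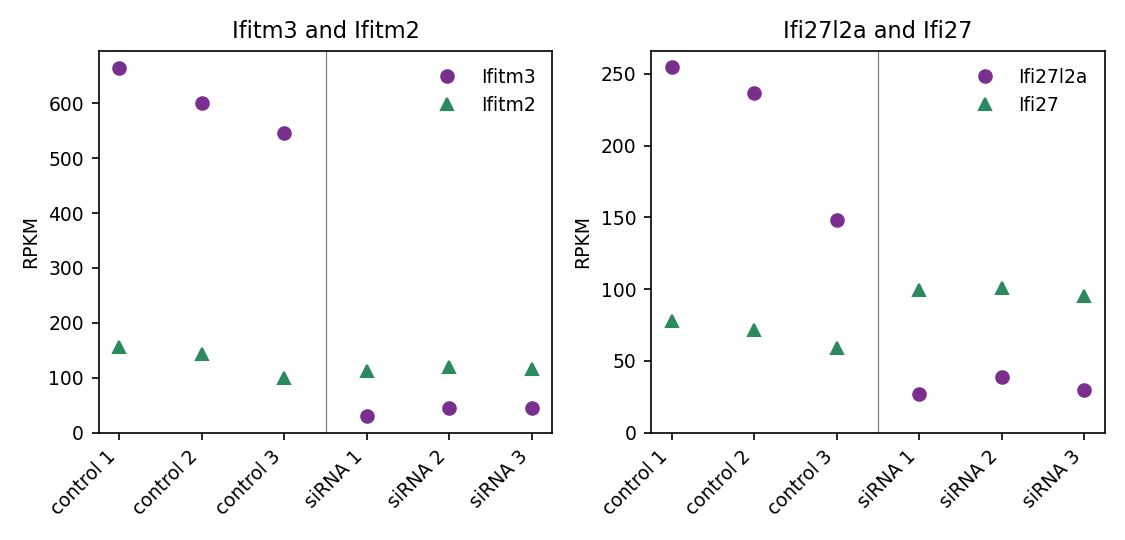
RPKM of Ifitm3 with Ifitm2 (left) and of Ifi27l2a with Ifi27 (right) in the 3 control and 3 siRNA libraries, 1 point per gene and library. The chosen effector is the higher of its pair in every control library and the lower in every siRNA library, while Ifitm2 stays between 99.152 and 155.441 RPKM and Ifi27 between 58.66 and 101.053 RPKM.

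Of 17 paralogs in the table, 10 passed the filter. Ifitm1 and Ifitm6, the nearest genes on either side of Ifitm3, were lower (-1.0 and -0.77, adjusted p = 7.44e-05 and 0.000953 in limma). By the group means they fell 12.7-fold and 5.3-fold, from control means of 1.2 ± 0.253 and 1.029 ± 0.205 RPKM (SD, n = 3 each). The siRNA values correspond to about 3, 4 and 3 reads for Ifitm1 and 3, 12 and 3 reads for Ifitm6. These ratios therefore rest on few reads. Ifitm10 was higher (0.42, adjusted p = 0.0212) and Ifi27l2b lower (-0.39, adjusted p = 0.0198), both under 1 RPKM in every library; Ifi27l2b lost its call without siRNA replicate 1 or 2 (adjusted p = 0.0634 and 0.0737), Ifitm10 without control replicate 2, siRNA replicate 2 or siRNA replicate 3 (adjusted p = 0.0762, 0.0677 and 0.0614), and both with no filter (0.214 and 0.213). Ifi44l, the paralog 8777 bases from Ifi44, was listed at 0.082 RPKM in control replicate 1 and at 0.001 RPKM in the other 5 libraries, and Rtp1 reached 0.017 RPKM in 1 library. Cmpk1, the cytosolic counterpart of Cmpk2, differed by -0.14 (adjusted p = 0.0572; 0.0197 without control replicate 3, 0.0329 with no filter and 0.0132 with libraries rescaled to the same sum), and among dynamins, the family of the Mx proteins, Dnm1l was lower (-0.53, adjusted p = 0.00809; 0.12 with no filter) and Dnm1 and Dnm2 did not pass. Over 17 tested paralogs and nearest neighbours, 8 were lower, 2 higher and 7 not called.

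The nearest genes that are no relatives of the effectors showed both patterns, some lower and some not called. Only protein-coding genes with a row under their GENCODE M21 symbol were eligible, so a nearer gene can lie between. Mvb12a, 5466 bases from Bst2, stood at 71.911, 61.453 and 46.71 RPKM in control and 64.05, 64.479 and 52.26 RPKM in siRNA libraries (0.02, adjusted p = 0.922). Masp1, a complement-pathway protease gene whose 5′ part overlaps Rtp4 on the opposite strand, was lower, from 16.313, 11.885 and 15.593 RPKM to 1.534, 2.628 and 3.151 RPKM (-2.20, adjusted p = 5.78e-05). Its highest library lay well under the lowest control value of Rtp4, and reads from the overlap cannot be told apart if strand was not used. Rnf144a, 27492 bases from Rsad2 (-0.25, adjusted p = 0.0233), Sox11, 854427 bases from Cmpk2 (-0.93, adjusted p = 0.000179), and Ttll7, 4746913 bases from Ifi44 (-0.46, adjusted p = 0.0106; 0.136 with no filter), were lower from control means of at most 1.473 RPKM; the call for Rnf144a was lost without any 1 library other than control replicate 1 (adjusted p = 0.0515 to 0.079), with no filter (0.17) and with quantile normalization (0.136). Plvap and Slc13a5 did not pass, and Fbxo39, 711 bases from Xaf1, and Sst were below the filter.

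The genes outside the list whose pattern over the 6 libraries was most like the effectors' mean pattern, by Pearson's r on log2(RPKM + 1), were Phf11d (r = 0.9999), Ms4a4c (0.9999), Tor3a (0.9998), Irgm1 (0.9997) and Ly6e (0.9996). The 6 libraries share the split into 2 groups, which dominates such an r, and 1754 of 13258 other genes (13.2%) had an r of at least 0.95. Ly6e, the most abundant of the 5, stood at 417.539, 402.25 and 351.43 RPKM in control and at 61.749, 72.54 and 63.289 RPKM in siRNA libraries.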

How the data were processed

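RNA-seq of 6 libraries, 3 control and 3 Tet1/Tet2 siRNA, was analysed from the table the authors deposited, which holds RPKM on a linear scale (reads scaled to gene length and library size; the methods write FPKM) and a p-value of the authors' own comparison, which was not used. The authors mapped trimmed reads to GRCm38 and estimated abundance with DNASTAR Lasergene 15.0, per the methods; annotation, strand use and multi-mapping are not given in the sources used here. Where a symbol had several of the 36915 rows (37 symbols), the one with the highest mean was used.

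Groups were compared on log2(RPKM + 1), a pseudocount of 1, with limma 3.58.1 in R 4.3.3 (lmFit, eBayes with trend, two-sided) in the 13266 genes averaging 0.1 RPKM or more, with Benjamini-Hochberg adjustment over all of them, and the fit was tested on simulated data. Exact permutation of 3 against 3 cannot give a p under 0.1. On this scale the differences of low genes are understated. The effectors and the lists were chosen with earlier results of these data known. Named from each list were the receptor chains, STAT2 and IRF factors. Otherwise up to 4 genes with the largest and 2 with the smallest called differences were named, and those called against their list's majority. Also named were the paralogs that passed the filter, all nearest neighbours and the 5 most similar genes. Jak1 and Tyk2 were named after their values were seen, and 1 gene of the rule is not reported here.

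The table gives no depth. It was estimated in Python 3.11.15 from low RPKM values of genes with 1 transcript, of which 51.6% to 58.6% lay within 0.1 of a whole read, so no count test was run. Replicates of a group correlated with r of 0.992 to 0.997. Replicate numbers are shared between groups. Deviations from the group means of same-numbered libraries correlated at 0.149, 0.117 and 0.462, each above 0.1, and a fit with the number as a block was added for that reason. The meaning of the numbers is given in neither labels nor methods, and the value for control 1 and siRNA 2 was 0.332. Alternatives were other pseudocounts, filters and scalings, eBayes without trend, the replicate block, summed rows of repeated symbols and each library left out.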

Additional observations from a re-analysis of the deposited data

How the results depend on the processing

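The depth is an estimate and the replicates may be technical, which limits all p-values. All 8 effectors were lower without overlap and over 2-fold in every alternative planned, and 5 were when centred on stromal markers, where 0.724% of all genes were. Their median difference of -3.49 became -3.86 and -3.89 with pseudocounts of 0.1 and 0.01, -3.77 with libraries rescaled to the same sum and -1.28 centred on stromal markers, which turned Bst2 from -1.67 to 0.81 and moved the median of all genes from -0.09 to 2.02, and -3.61 to -3.37 with 1 library left out. Pathway genes called higher numbered 7, and 11 with median ratio scaling, 14 with quantile normalization and 4 relative to Gapdh. Neighbours and paralogs called lower numbered 8, and 5 with no filter and 2 with a minimum mean of 1 RPKM; those called higher numbered 2, and 0 with no filter (limma), 1 with that minimum and 1 to 2 with 1 library left out. Without a filter more genes enter the adjustment, and with the higher one fewer of these low genes are tested; the cause of the other changes was not tested. Of the 5 most similar genes, 3 were shared with a pseudocount of 0.1 and 3 with quantile normalization. Over the whole promoter window, 2 of the 6 promoters, those of Bst2 and Ifitm3, had the repeat followed by C. So did 0.82% of all promoters and 32.5% of 40 other antiviral effectors. The same 2 had the GAS-like letters TTC, any 3 bases, GAA. Of all promoters 8.3% held these letters, and of those other effectors 25%. In the 250 bases before the start, Bst2 alone had either form. There the shares of all promoters were 0.68% for the first form and 7.02% for the second. Scaling set the split over all genes, 3952 lower and 1953 higher as deposited, 3054 and 2737 with median ratio scaling and 2627 and 3606 with quantile normalization, where the median of all genes moved from -0.09 to 0.06. With the replicate block, 72 pathway genes were lower and 7 higher, 8 neighbours and paralogs were lower and 2 higher, and the pairing changed no call of a named gene.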
